A study of Mus musculus with 8 samples.

Results

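Spp1-high nuclei are those retinal ganglion cell (RGC) nuclei in which at least 3 RNA molecules of Spp1 were counted, and they amounted to 471 of 23059 RGC-gate nuclei (2.04%) over 8 libraries of adult mouse retina. A nucleus passed the RGC gate when its barcode had at least 2000 unique molecular identifiers (UMIs, each of which marks 1 captured RNA molecule), at most 5% of them from mitochondrial genes, at least 2 UMIs of Rbpms and Slc17a6 together and at most 1 UMI of Gad1, Gad2 and Slc6a9 together. Of 33687 barcodes that met the conditions on depth and mitochondrial share, 23059 did so. A Spp1-high nucleus also had at most 4 UMIs of Cartpt, at most 4 of Foxp2, and UMIs of fewer than 2 of the genes Opn4, Eomes and Tbx20. The rule uses these as markers of other RGC types. Opn4 is not limited to those types, as given below, and the nuclei removed by these conditions are described at the end. The remaining 22588 RGC-gate nuclei served as the comparison and are called other RGC nuclei. The values of these genes chose the nuclei, so their levels are described and not tested between the populations.

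The libraries came from a study of the mechanically activated channel Piezo2 in oligodendrocyte lineage cells, which also examined the retina by single-nucleus RNA sequencing. All mice were female, 120 days old (P120) and carried Piezo2f/f, in which both alleles have loxP sites around part of the gene. Control mice were Piezo2f/f without Cre (4 libraries, replicates 1 to 4), and cKO mice were Olig2-cre;Piezo2f/f (4 libraries, replicates 10 to 13), in which Cre is knocked into 1 Olig2 allele, leaves the mice heterozygous for Olig2 and acts in cells with a history of Olig2 expression. In each library 6 retinae were pooled and nuclei were sorted with antibodies against NeuN and RBPMS. A library is therefore a pool, and every p-value measures the spread between pools. The 187 Spp1-high nuclei of control mice and the 284 of cKO mice were summed per library before any test.

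Spp1 encodes osteopontin, a secreted phosphoprotein that binds integrins and CD44. Among mouse RGCs it is known as a marker of alpha cells, which have large somata, wide dendritic arbors and thick, fast-conducting axons rich in neurofilament, and which exist as sustained and transient ON and OFF types. Kcng4 encodes Kv6.4, a silent subunit that joins Kv2 potassium channels and is the other classical alpha cell marker. Alpha cells are known for comparatively good survival and regeneration of the axon after optic nerve injury, and the ON sustained type is also weakly melanopsin-positive. Macrophages and activated microglia express Spp1 as well.

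In GRCm39 the Spp1 gene lies at chr5:104582165-104589235 on the plus strand, Kcng4 at chr8:120349688-120362762 on the minus strand and Il1rapl2, the named gene with the largest rise in Spp1-high nuclei, at chrX:136471357-137749670 on the plus strand. The promoter windows of the gene that chose the nuclei, of its partner marker and of the named gene that rose most are shown because the results turn on these 3 genes. They are RefSeq windows of 300 bases in GRCm38.p6, from 250 bases before to 50 bases after the annotated start, at chr5:104434861-104435160 (plus), chr8:119635631-119635930 (minus) and chrX:137570504-137570803 (plus). Capitals mark the letters TATAAA and CCAAT on either strand (TTTATA and ATTGG on the other), and no match overlaps another.
Spp1: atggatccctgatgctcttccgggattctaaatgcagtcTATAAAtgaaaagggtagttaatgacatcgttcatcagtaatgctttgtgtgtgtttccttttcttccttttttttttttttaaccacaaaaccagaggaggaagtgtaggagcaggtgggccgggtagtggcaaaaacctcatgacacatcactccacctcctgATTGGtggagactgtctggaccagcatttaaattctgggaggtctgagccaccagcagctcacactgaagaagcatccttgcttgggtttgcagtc
Kcng4: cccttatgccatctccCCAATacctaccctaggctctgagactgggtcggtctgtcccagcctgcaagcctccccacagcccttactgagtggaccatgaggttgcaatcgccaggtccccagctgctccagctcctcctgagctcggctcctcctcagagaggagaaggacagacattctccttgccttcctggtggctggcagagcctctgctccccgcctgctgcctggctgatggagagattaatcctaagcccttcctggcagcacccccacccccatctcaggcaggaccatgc
Il1rapl2: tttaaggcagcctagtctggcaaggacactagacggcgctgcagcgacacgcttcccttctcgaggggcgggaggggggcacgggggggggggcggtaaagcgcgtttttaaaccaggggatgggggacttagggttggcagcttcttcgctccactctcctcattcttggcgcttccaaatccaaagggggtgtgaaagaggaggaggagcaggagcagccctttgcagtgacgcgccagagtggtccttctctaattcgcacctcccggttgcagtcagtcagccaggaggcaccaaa
The Spp1 window holds 1 TATAAA and 1 CCAAT, the Kcng4 window holds 1 CCAAT, and neither run of letters is in the Il1rapl2 window. Of 32851 RefSeq promoter windows of this length, 13.6% hold TATAAA and 37.4% hold CCAAT. For Spp1, RefSeq lists 2 starts and the window of the first was used.

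The libraries held 35697629 to 60088630 UMIs in all. Spp1-high nuclei were deeper than other RGC nuclei in every library. Their median was 11703 to 24387.5 UMIs per nucleus, against 4781 to 10833, a ratio of 2.10 to 2.80. A condition on a number of UMIs is easier to meet in a deep nucleus, so the main comparisons with other RGC nuclei are also given against other RGC nuclei of the same library matched on total UMIs. The part that nuclear size or depth has in the remaining differences was not tested. Other RGC nuclei, matched or not, could include those with 1 or 2 Spp1 UMIs and the 88 with 3 or more that failed another condition. Il1rapl2 had 1602 UMIs per 1000000 in nuclei with 2 Spp1 UMIs and 3274 in 75 of the 88. The part that such nuclei have in the smaller changes with depth matched was not tested. The share of UMIs from the nuclear RNA Malat1 was also higher in Spp1-high nuclei in 8 of 8 libraries, at 4.61% to 8.22% against 3.56% to 6.68%. No barcode was that of a Spp1-high nucleus in both libraries of a pair, while 61 barcodes of RGC-gate nuclei were shared over the 28 pairs of libraries. Whether any of the 61 was Spp1-high in 1 library of its pair was not examined. Control replicates 1 and 4 contributed only 25 and 24 Spp1-high nuclei, the fewest of all.

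The targeted gene did not separate the genotypes here. In Spp1-high nuclei the 4 control libraries (replicates 1 to 4) had 2, 4, 1 and 8 Piezo2 UMIs, and the cKO libraries (replicates 10 to 13) had 3, 9, 9 and 5. The means were 5.81 ± 5.51 UMIs per 1000000 (CPM; SD, n = 4) and 5.23 ± 1.74 CPM (n = 4; difference -0.581 CPM, two-sided exact permutation p = 0.914). In other RGC nuclei the means were 14.7 ± 2.62 and 12.4 ± 2.59 CPM (difference -2.27 CPM, exact permutation p = 0.314). Whether the counted reads cover the floxed part was not tested, so these levels check neither the deletion nor the labels.

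Spp1 itself was concentrated in few nuclei. In Spp1-high nuclei its level was 351, 384, 311 and 285 CPM in control replicates 1 to 4 and 268, 495, 496 and 215 CPM in cKO replicates 10 to 13. Other RGC nuclei had 10.8, 8.25, 7.54 and 6.14 CPM in the control libraries and 8.87, 16.6, 10.1 and 9.15 CPM in the cKO libraries. These ranges do not overlap, as the rule requires. The 2.04% of nuclei that were Spp1-high held 64.3% of all Spp1 UMIs of the RGC gate, from 40.5% in control replicate 1 to 73.9% in cKO replicate 12. The median Spp1-high nucleus had 4 to 6 Spp1 UMIs depending on the library, and the highest had 91. That nucleus, of cKO replicate 12, also carried UMIs of the macrophage genes S100a4, Gpnmb and Fcer1g, and the highest Spp1 count in the other 7 libraries was 24 UMIs.

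Free RNA contained Spp1. Empty droplets (barcodes of at most 100 UMIs) had 58.9 to 125 CPM, which was 6.64 to 15.1 times the level in other RGC nuclei of the same library. Among 556 nuclei with an amacrine profile (at least 5 UMIs of Gad1, Gad2 and Slc6a9 and at most 1 of Rbpms and Slc17a6), 0 had 3 or more Spp1 UMIs, which allows a share of up to 0.540%, against 2.42% of RGC-gate nuclei (559 nuclei). Their median depth was 5575 to 9849.5 UMIs, closer to that of other RGC nuclei than to that of Spp1-high nuclei. Intervals and limits of this kind cover counting error only.

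**Figure D1:**
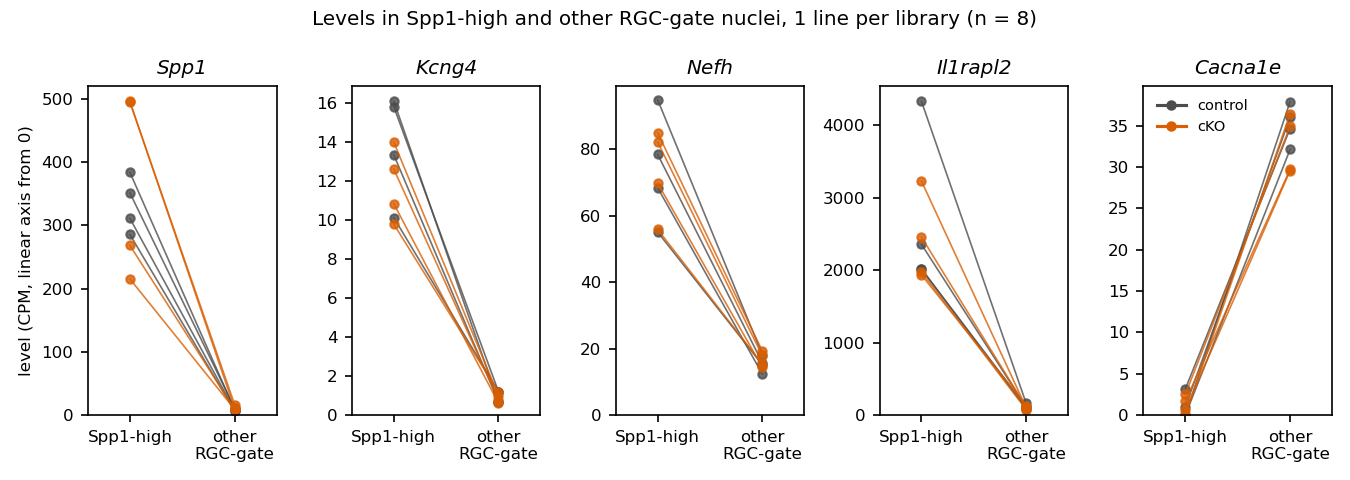
Levels of Spp1, Kcng4, Nefh, Il1rapl2 and Cacna1e in CPM (linear axes from 0) in Spp1-high and other RGC-gate nuclei, with 1 line for each of 8 libraries, grey for control and orange for cKO. In all 8 libraries Kcng4, Nefh and Il1rapl2 lie higher in Spp1-high nuclei and Cacna1e lies lower, and the Spp1 gap follows from the rule.

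Just outside the threshold, 141 nuclei had 2 Spp1 UMIs and met every other condition, and just inside it 113 nuclei had 3. Kcng4 was at 5.63 CPM in the nuclei with 2 Spp1 UMIs and at 7.75 CPM in those with 3. Nefh, the heavy neurofilament subunit, was at 55.1 and 71.5 CPM, and Il1rapl2 was at 1602 and 1682 CPM. With 0 Spp1 UMIs (16847 nuclei) Kcng4 was at 0.715, Nefh at 14.9 and Il1rapl2 at 64.2 CPM. With 1 UMI (618 nuclei) they were at 3.09, 27.1 and 313 CPM, and with 10 or more (77 nuclei) at 13.1, 84.6 and 2878 CPM. Pou4f1, the gene of the RGC transcription factor Brn3a, went the other way, from 85.8 CPM at 0 UMIs to 31.7 CPM at 10 or more. Nuclei with more Spp1 UMIs are also deeper nuclei, and these pooled levels are given with no test.

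**Figure D2:**
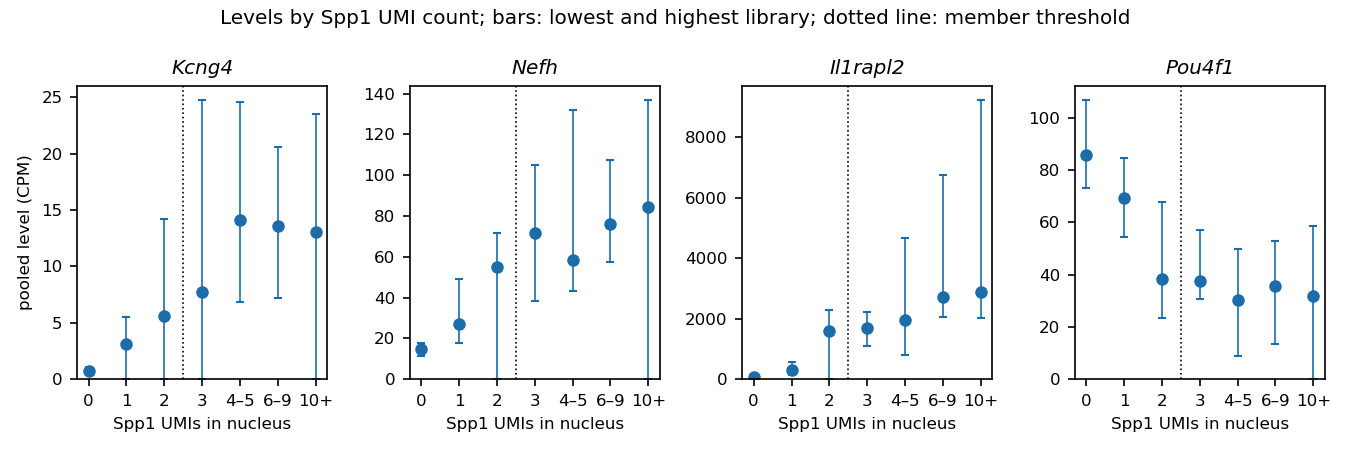
Pooled levels in CPM (points, linear axes from 0) of Kcng4, Nefh, Il1rapl2 and Pou4f1 in nuclei grouped by their number of Spp1 UMIs, for nuclei that met every other condition. Bars span the lowest to the highest library and the dotted line is the threshold of 3 UMIs. Kcng4, Nefh and Il1rapl2 were higher in the nuclei with 2 Spp1 UMIs than in those with 0 or 1, and Pou4f1 was lower.

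The name alpha-type was checked on genes that the rule did not use. Kcng4 was at 15.8, 10.1, 16.1 and 13.4 CPM in Spp1-high nuclei of control replicates 1 to 4 and at 9.80, 12.6, 14.0 and 10.8 CPM in those of cKO replicates 10 to 13. In other RGC nuclei no library exceeded 1.20 CPM. Kcng4 was thus higher in Spp1-high nuclei in 8 of 8 libraries without overlap (12.8 ± 2.44 against 0.914 ± 0.255 CPM, SD, n = 8; log2 fold change 3.78, SE 0.251, edgeR adjusted p = 1.38e-16). Against other RGC nuclei matched on depth, the log2 fold change was 2.51 (SE 0.321, edgeR adjusted p = 1.39e-06). The counts behind these levels were low, with 5 to 23 Kcng4 UMIs per library, and empty droplets had 2.54 to 12.5 CPM. In cKO replicate 10 the level of empty droplets, 12.5 CPM, exceeded the 9.80 CPM of Spp1-high nuclei, while in the other 7 libraries it was lower than theirs.

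A Kcng4 UMI was found in 18.0% of Spp1-high nuclei (12.9% to 25.0% over libraries), in 0.669% of other RGC nuclei and in 0.258% of amacrine-profile nuclei. With every nucleus thinned to 2000 UMIs the shares were 2.07% and 0.186%. Most Spp1-high nuclei had no Kcng4 UMI, which at this depth does not show that they lack the transcript.

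Neurofilament genes, which give large axons their calibre, were higher as well. Nefh was at 94.9, 55.1, 78.5 and 68.4 CPM in control replicates 1 to 4 and at 69.8, 85.0, 82.2 and 55.9 CPM in cKO replicates 10 to 13. The range was 12.3 to 19.2 CPM in other RGC nuclei, so the populations did not overlap in any library (log2 fold change 2.15, SE 0.0883, edgeR adjusted p = 1.35e-23; 1.62 with depth matched). Nefh UMIs were present in 69.1% of Spp1-high nuclei, 10.6% of other RGC nuclei and 6.12% of amacrine-profile nuclei, and in 11.7% and 2.57% of the first and second of these after thinning. Nefm, the medium subunit, rose by a log2 fold change of 1.00 (312 ± 35.8 against 157 ± 12.7 CPM) and Nefl, the light subunit, by 0.62 (219.9 ± 26.3 against 142 ± 17.2 CPM). The tyrosine kinase gene Fes, listed among the alpha cell markers, was also higher at 7.04 ± 3.34 against 1.25 ± 0.391 CPM (log2 fold change 2.53, edgeR adjusted p = 2.15e-09) and was too low to test with depth matched. After thinning, Fes UMIs were present in 0.149% of Spp1-high and 0.279% of other RGC nuclei, so the higher share was not seen at equal depth. Tpbg, also listed as an alpha cell marker, was at 1.69 ± 2.30 and 1.45 ± 0.530 CPM and did not pass (edgeR adjusted p = 0.399).

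In all, 7 of the 8 tested alpha cell markers were higher and 0 lower in Spp1-high nuclei, with a median log2 fold change of 2.34 against -0.04 over all genes tested. The 7 include Kcnip2, which was high mostly in 1 subgroup. As background, 3670 of 15832 genes (23.2%) passed in this comparison, 1544 higher (9.75%) and 2126 lower (13.4%). With depth matched, 6 of 6 tested markers were higher, beside 1550 of 10133 genes (15.3%), 734 higher (7.24%) and 816 lower (8.05%). Of the 3670 genes, 2030 could be tested with depth matched, and 1377 passed there in the same direction. The markers go with the alpha-type name for the population as a whole, with exceptions among its subgroups.

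Among the named genes the largest rise was that of Il1rapl2, which encodes a synaptic adhesion protein of the interleukin 1 receptor family. It reached 4332, 2016, 2358 and 2017 CPM in Spp1-high nuclei of control replicates 1 to 4 and 3231, 2457, 1976 and 1935 CPM in those of cKO replicates 10 to 13. In other RGC nuclei it ranged from 74.1 to 159 CPM, far below every Spp1-high value (log2 fold change 4.51, SE 0.0724, edgeR adjusted p = 1.78e-37). Control replicate 1 was the highest library by a wide margin. With depth matched the log2 fold change was 2.61.

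Etv1, an ETS family transcription factor, was also among the 12 genes with the largest rises, at 114, 167, 139.9 and 229 CPM in control replicates 1 to 4 and at 121, 173, 175 and 144 CPM in cKO replicates 10 to 13. In other RGC nuclei Etv1 had 3.30 to 15.8 CPM (log2 fold change 4.05, and 2.27 with depth matched). Glis3, a zinc finger transcription factor, was uneven, with 4.90 CPM in cKO replicate 10 and 6.33 CPM in control replicate 1 but 35.9 to 91.6 CPM in the other libraries. Other RGC nuclei had 1.42 to 5.92 CPM of Glis3, so the ranges overlapped although Spp1-high nuclei were higher within each of 8 libraries (log2 fold change 4.16). Igfbp2, which binds insulin-like growth factors, and Inhbb, the beta B subunit of activin and inhibin, rose by log2 fold changes of 4.15 and 4.00, from 1.90 and 1.35 to 32.1 and 21.8 CPM. With depth matched the log2 fold changes were 2.46 for Glis3, 2.42 for Igfbp2 and 2.85 for Inhbb.

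Of the others of these 12 genes, Kcng2, the silent Kv6.2 subunit, was at 58.9 ± 23.97 CPM against 5.71 ± 0.788 (log2 fold change 3.36, and 2.02 with depth matched). Scn4b, the sodium channel beta 4 subunit associated with fast, repetitive firing, was at 52.2 ± 14.0 against 5.38 ± 1.20 CPM (3.27, and 1.81 with depth matched). Kcnip2, a Kv4 channel-interacting protein, was at 30.3 ± 19.6 against 3.40 ± 0.719 CPM (3.11, and 2.57 with depth matched). Most of this rise lay in 1 of 8 subgroups described further on, subgroup 3, at 161 CPM, while the other Spp1-high nuclei together had 2.73 CPM. Glis3 was likewise at 280 CPM in subgroup 3 and at 5.45 CPM in the other Spp1-high nuclei, within its range in other RGC nuclei. Kcng2 was at 273 CPM in subgroup 3, at 58.8 CPM in subgroup 5 and at no more than 14.5 CPM in the rest. Prph, the intermediate filament peripherin, rose by 3.25 on the log2 scale, and Hapln1, a link protein of the perineuronal matrix, by 3.41. Ctxn3, a cortexin, and Ccdc192 rose by 3.16 and 3.29. With depth matched these values were 1.81 for Prph, 1.72 for Hapln1, 2.26 for Ctxn3 and 2.22 for Ccdc192. Each of these 12 genes kept its direction and passed in every alternative in which it could be tested.

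Several of the 12 genes with the largest falls encode channels and receptors. Cacna1e, the Cav2.3 calcium channel subunit, was at 0, 3.17, 1.01 and 0 CPM in Spp1-high nuclei of control replicates 1 to 4 and at 0, 1.68, 0.609 and 2.503 CPM in those of cKO replicates 10 to 13. The level was 29.6 to 37.9 CPM in other RGC nuclei, so no library came near the other population (log2 fold change -4.54, SE 0.233, edgeR adjusted p = 2.60e-20; -4.40 with depth matched). Gabrg3, a GABA-A receptor subunit, was at 12.2 to 69.0 CPM against 670 to 812 CPM (-4.24). The kainate receptor gene Grik3, the glycine receptor gene Glra3 and the AMPA receptor gene Gria1 had log2 fold changes of -4.24, -4.23 and -4.20. Bnc2, a zinc finger protein gene, and Ldb2, which encodes a LIM domain-binding protein, fell by 4.24 and 4.21 on the log2 scale.

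Sox5os4, annotated as an RNA antisense to Sox5, had the most negative value of the 12, -4.88, at 0 to 2.53 CPM against 20.6 to 34.4 CPM. Whether the counting used strand is not given in the sources used here, and whether reads of Sox5 were counted for Sox5os4 was not tested. Col25a1, a transmembrane collagen, fell by 4.34 on the log2 scale, Camkv, a kinase-like calmodulin-binding protein, by 4.12 and Myo5b, a vesicle motor, by 3.98. Other RGC nuclei include the nuclei that the rule removed from the Spp1-high set, and the share of each difference that this removal sets was not tested.

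**Figure D3:**
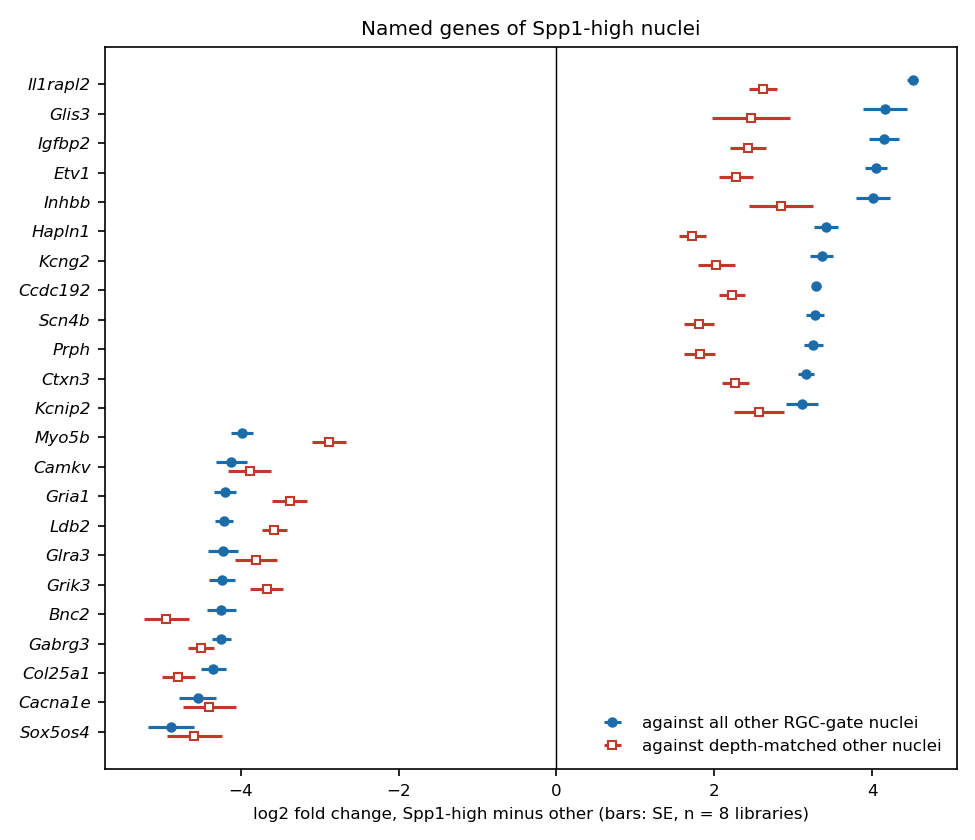
Log2 fold changes with SE of the 12 genes with the largest rises and 11 of those with the largest falls in Spp1-high against other RGC nuclei (8 libraries), beside the values with depth matched. All 23 kept their sign with depth matched, with rises between 1.72 and 2.85 and falls between -4.94 and -2.88.

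The voltage-gated potassium channel genes split by family member, while over all genes tested 9.75% were higher and 13.4% lower. Of 7 tested genes for Kv2 channels and their silent partners, 4 were higher (Kcng4, Kcng2, Kcnb2 and Kcns3) and 3 lower, among them Kcng3 and Kcns2. Kcnb2, the Kv2.2 subunit, was at 1371 ± 181 against 779 ± 31.7 CPM (log2 fold change 0.80), and passed with depth matched at 0.68. Among 10 genes of Kv1 and Kv3 channels, which shape brief action potentials, 3 were higher and 2 lower. Kcna1 (log2 fold change 1.61) and Kcnc1 (0.68) were among the higher ones, and both passed with depth matched.

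Of 8 sodium channel genes, 2 rose, Scn4b among them, and 2 fell, Scn2a (-0.63) and the beta 3 subunit gene Scn3b (-2.49). Of 15 calcium channel genes, 2 rose, Cacna1h for the T-type subunit (0.95) and Cacna2d3 (1.08), and 7 fell. None of 11 genes of the axon initial segment and node tested higher, and 2, Nrcam (-1.04) and Fgf13 (-1.21), tested lower, beside 9.75% higher and 13.4% lower over all genes, so the count is not a result about the list. The node scaffold gene Ank3 had a log2 fold change of -0.44, under the size threshold of 0.5. In the list of 10 genes of the axonal cytoskeleton 6 were higher, including the neurofilament genes, Prph, Map1b (0.58) and the tubulin gene Tubb3 (0.75), and Gap43, a growth cone protein, was lower (-1.70). With depth matched, the same 2 and 2 counts held for sodium channel genes, 2 calcium channel genes were higher and 5 lower, and 0 initial segment and node genes were higher and 2 lower. Over all genes 7.24% were higher and 8.05% lower with depth matched. In the cytoskeleton list 5 of 10 were then higher and 1 lower, with Map1b at 0.42, under the size threshold.

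Receptors for inhibitory transmitters were mostly lower. The shares over all genes tested were 9.75% higher and 13.4% lower, and 7.24% and 8.05% with depth matched. Of 16 tested GABA-A and glycine receptor genes, 11 fell and 3 rose, with a median log2 fold change of -1.09. Gabrb1 fell by 3.72 on the log2 scale, to 17.9 ± 12.7 from 290.1 ± 20.8 CPM. Glra1, the glycine receptor alpha 1 subunit, went the other way, from 20.4 ± 2.42 to 146 ± 25.0 CPM (log2 fold change 2.86, SE 0.0816, edgeR adjusted p = 4.46e-29; 1.92 with depth matched). Gabra3 and Gabrg1 rose by 0.83 and 0.81. Among 17 ionotropic glutamate receptor genes 2 rose, Grin2c (1.92) and Grid1 (0.60), and 8 fell. With depth matched, 3 of 15 tested inhibitory receptor genes were higher and 11 lower, with a median of -0.65. Of 16 glutamate receptor genes tested in that way 2 were higher, Grin2d and Grid1, and 8 lower, while Grin2c was too low to test.

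RGC transcription factor genes changed in both directions, with 6 of 24 higher and 11 lower. Over all genes tested the shares were 9.75% and 13.4%, and 7.24% and 8.05% with depth matched. Irx1 was at 13.0 ± 5.58 against 1.55 ± 0.400 CPM (log2 fold change 3.00), Tbr1 at 9.69 ± 4.39 against 4.16 ± 0.595 CPM (1.24) and Isl1 at 166 ± 18.7 against 107 ± 10.9 CPM (0.62). Pou4f1 was lower at 32.7 ± 5.57 against 84.2 ± 11.5 CPM (-1.29), while Pou4f2, the gene of Brn3b, missed the size threshold (-0.48). Bcl11b and Irx4 fell by 2.85 and 4.12 on the log2 scale. With depth matched 16 could be tested, of which 3 were higher, including Isl1 and Irx2, and 4 lower, including Pou4f1, Satb1 and Bcl11b. Markers of other RGC types, of which 13 could be tested, were higher for 3 genes and lower for 7, with a median of -1.90. With depth matched 4 of these markers could be tested, of which 1 was higher and 2 were lower.

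Genes tied to osteopontin signalling and axon growth changed in both directions. Over all genes tested 9.75% were higher and 13.4% lower (7.24% and 8.05% with depth matched), and the counts below are not read as a result about either list. Of 9 tested osteopontin receptor genes, Itga8, an integrin subunit, was higher and Cd44, Itgb5, Itga4 and Itga5 were lower. Itga8 was at 15.8, 22.8, 26.2 and 30.0 CPM in Spp1-high nuclei of control replicates 1 to 4 and at 31.8, 29.5, 34.7 and 25.9 CPM in those of cKO replicates 10 to 13, against 3.59 to 6.10 CPM in other RGC nuclei. No library overlapped (log2 fold change 2.49, and 1.36 with depth matched). Of 19 tested axon growth and injury genes, 3 were higher and 4 lower. Igf1, a growth factor given together with osteopontin in regeneration studies, was at 223 ± 28.1 against 97.2 ± 5.65 CPM (1.15, and 0.69 with depth matched), and its receptor gene Igf1r was at 236 ± 18.3 against 245 ± 14.3 CPM. Lifr, a cytokine receptor, rose by 1.29 and Sox11, a growth-related transcription factor, by 0.61. With depth matched, 5 osteopontin receptor genes could be tested, of which Itga8 was higher and Itga4 lower (-1.36), and Cd44, Itgb5 and Itga5 were too low to test. Of 18 growth and injury genes tested in that way 2 were higher, Igf1 and Lifr (0.86), and 2 lower, with Sox11 at 0.38, under the size threshold.

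Of 8 tested genes for mechanosensitive channels, the potassium channel gene Kcnk10 was higher (0.61) and 5 were lower. Beside this paragraph's counts, 9.75% of all genes tested were higher and 13.4% lower (7.24% and 8.05% with depth matched). Piezo2 was one of the 5, at 5.52 ± 3.79 against 13.5 ± 2.70 CPM (log2 fold change -1.41), and Piezo1 was too low to test (0.671 against 0.872 CPM). Kcnk2 fell by 3.35 on the log2 scale. With depth matched, 0 of 6 tested genes were higher and 3, Piezo2, Trpv2 and Tmem63c, were lower, while Kcnk10 had 0.41, under the size threshold. Immediate early genes were higher in 0 and lower in 3 of 9 tested cases (Jun, Egr1 and Nr4a3), and 0 of 4 passed with depth matched.

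Markers of other retinal cells were examined because free RNA and mixed droplets can carry them. Among all genes tested 9.75% were higher and 13.4% lower (7.24% and 8.05% with depth matched). Rod and cone markers summed to 142 to 649 CPM in Spp1-high nuclei against 310 to 895 CPM in other RGC nuclei and were lower in 8 of 8 libraries, with 11 of 12 genes lower. Microglia markers summed to 80.1 to 156 CPM against 86.0 to 157 CPM, with Tmem119 at 0 UMIs in all Spp1-high nuclei and 0 of 4 tested genes passing. Oligodendrocyte lineage markers summed to 3.16 to 13.3 CPM against 19.9 to 29.0 CPM, with Olig1, Olig2 and Cspg4 at 0. Müller glia markers summed to 99.7 to 186 CPM against 114 to 219 CPM and 5 of 8 were lower. Amacrine markers, of which Gad1, Gad2 and Slc6a9 were limited by the rule, summed to 143 to 214 CPM against 117 to 144 CPM, and of 3 tested genes 1 was higher and 2, Slc32a1 and Tfap2b, were lower. With depth matched, 5 of 7 tested rod and cone genes and 0 of 3 Müller glia genes were lower.

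Clustering the 471 nuclei without the genes of the rule gave 8 subgroups of 106, 79, 71, 63, 56, 48, 27 and 21 nuclei. They are described by pooled levels with no test, since the same nuclei made the clusters. The first 7 came from 8 libraries each and the last from 7. Subgroup 1 was led by the axon guidance gene Slit3 (116 CPM against 4.26 in the other Spp1-high nuclei), Stard13, Hs3st4, Zfp804a and Col5a3. Subgroup 2 was led by Ipcef1, Slc44a5, Arhgap15, Itga8 and Prkg1. Il1rapl2 was at 5948 CPM in subgroup 1 and 4203 CPM in subgroup 2, which held 61.7% and 28.4% of its UMIs.

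Subgroups 1 and 2 also had the most Calb1 (194 and 169 CPM), which encodes a calcium-binding protein, and had 171 and 130.2 CPM of Prph. Prph was at 144 CPM in subgroup 8, at 49.8 CPM in subgroup 7 and at no more than 1.93 CPM in subgroups 3 to 6, so its rise over the whole set lay in 4 of the 8 subgroups. At least 1 UMI of Opn4, the melanopsin gene, was in 38.1% of nuclei of subgroup 8, 29.2% of subgroup 1, 17.7% of subgroup 2 and 14.8% of subgroup 7, and in at most 4.23% of subgroups 3 to 6. Itga8 was at 45.7 and 94.8 CPM in subgroups 1 and 2 and at no more than 3.35 CPM in subgroups 3 to 6.

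Subgroup 3 stood apart from both. It was led by Lama1, a laminin chain (163 CPM against 0.144 in the other Spp1-high nuclei), Rph3al, Dytn, Glis3 (280.0 against 5.45 CPM) and Kcnip2 (161 against 2.73 CPM). Kcng2 reached 273 CPM there and Kcng4 22.7 CPM, the highest of the 8 subgroups for each. Igf1, between 158 and 656 CPM in every other subgroup, was at 10.3 CPM, and Il1rapl2 was at 32.3 CPM.

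Subgroups 4, 5 and 6 shared Tbr1, at 26.1, 28.4 and 25.6 CPM, which was at no more than 4.15 CPM in the other 5, and had the most Fes, at 12.6, 11.4 and 13.4 CPM. Scn4b was at 123, 78.7 and 79.2 CPM in them and at most at 36.7 CPM in the other subgroups. Subgroup 4 was led by Sncaip, Chst9, Bmpr1b, Prickle2 and Kcnip3, subgroup 5 by the serotonin receptor gene Htr2c, Tnni3k, Kcnq5, Stab2 and Hpgd, and subgroup 6 by the adhesion gene Nectin3, Sorcs3, Gabrg1 and St8sia6. Kcng4 was low in subgroups 4 and 6, at 2.90 and 2.23 CPM from 3 and 2 UMIs, and at 11.4 CPM in subgroup 5.

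Subgroup 8 fitted the alpha-type name less well in Nefh, and subgroups 7 and 8 were left unnamed. Subgroup 8 (21 nuclei, median 8859 UMIs) had 4.79 CPM of Nefh, against at least 49.3 CPM in the other 7. Its Kcng4 level was 9.58 CPM, from 2 UMIs. Tbx20 and Opn4, which the rule used, were at 201 and 47.9 CPM there and are given as description only. The leading genes of subgroup 8 were Abca12, Hmcn1, Synpo2, Gabrg3 and Cck. Subgroup 7 (27 nuclei) was led by S100a4, Bnc2, Gpnmb, Fcer1g and Trpm1, each higher in only 2 or 3 of 8 libraries. It had 60.2 CPM of Nefh and 6.23 CPM of Kcng4, from 3 Kcng4 UMIs. Kcng4 was lower than this in subgroups 4 and 6. A single nucleus of cKO replicate 12 carried 91 Spp1, 47 S100a4, 27 Gpnmb and 26 Fcer1g UMIs, and the last 3 genes are typical of macrophages.

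**Figure D4:**
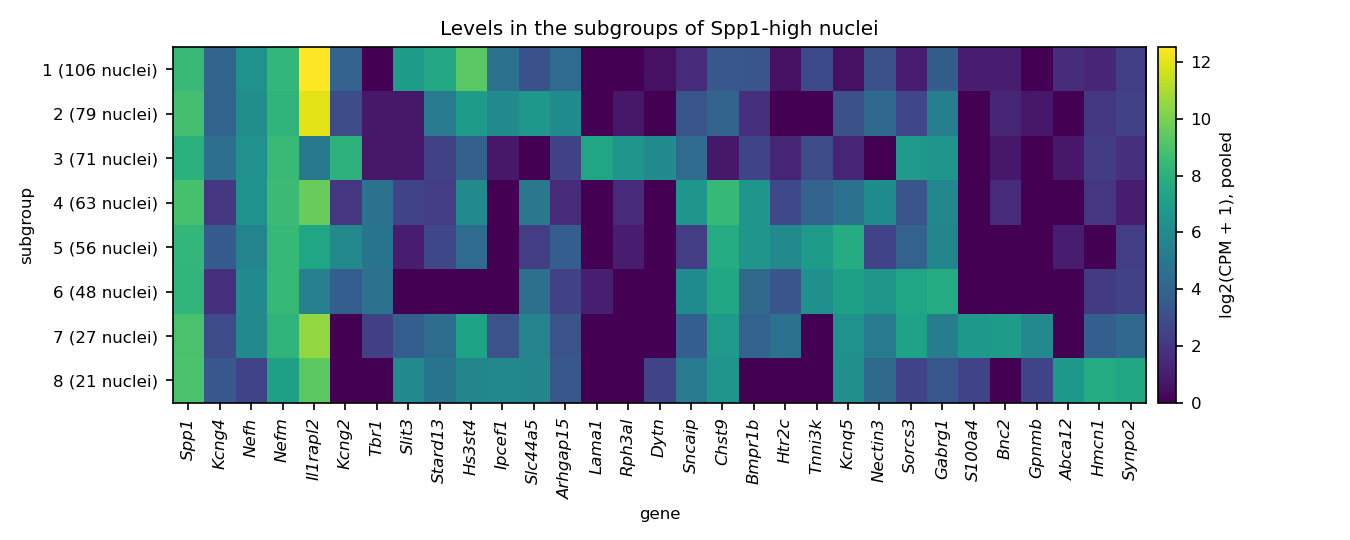
Pooled level of 7 marker genes and of 3 leading genes of each subgroup (columns) in the 8 subgroups of Spp1-high nuclei (rows), in colour as log2(CPM + 1). Il1rapl2 is highest in subgroups 1 and 2, Kcng2 and Lama1 in subgroup 3 and Tbr1 in subgroups 4 to 6, and Nefh is lowest in subgroup 8.

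To ask whether the genotype altered this population, its share was compared first. Spp1-high nuclei made up 0.936%, 2.31%, 1.75% and 1.48% of RGC-gate nuclei in control replicates 1 to 4 (25, 84, 54 and 24 nuclei). In cKO replicates 10 to 13 they made up 1.63%, 2.55%, 2.76% and 2.22% (43, 93, 102 and 46 nuclei). The genotypes overlapped, with cKO replicate 10 below control replicates 2 and 3. For control replicate 1 the exact 95% binomial interval was 0.607% to 1.38%, and for cKO replicate 12 it was 2.26% to 3.35%. The means were 1.62% ± 0.572 and 2.29% ± 0.497 (SD, n = 4 each), and the difference of 0.672 percentage points did not pass (two-sided exact permutation p = 0.143, smallest possible p = 0.0286). Without control replicate 1 the difference was 0.445 points.

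The Spp1 level over all RGC-gate nuclei, which does not depend on the threshold, was 17.9, 25.6, 19.1 and 14.6 CPM in control replicates 1 to 4 and 18.8, 44.4, 36.8 and 21.0 CPM in cKO replicates 10 to 13. Two-sided exact permutation gave p = 0.2 for the difference of 10.9 CPM (19.3 ± 4.603 against 30.2 ± 12.4 CPM, n = 4 each). A higher share of Spp1-high nuclei and more Spp1 per nucleus could not be told apart in this level. For the shares of the 8 subgroups, the smallest p between genotypes was 0.171 (exact permutation, adjusted over 8 subgroups p = 0.971). The smallest p that 4 against 4 libraries allow is 0.0286 by exact permutation, so 1 subgroup alone could not have passed after this adjustment. The largest difference in share was that of subgroup 5, with 9.17% ± 4.15 of Spp1-high nuclei in control and 14.4% ± 6.53 in cKO libraries.

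No gene passed between genotypes within Spp1-high nuclei, where 0 of 10248 tested genes (0.0%) were called with edgeR and 337 had an unadjusted p under 0.05. DESeq2 also called 0 genes, with 144 at an unadjusted p under 0.05. The 5 genes with the smallest unadjusted p, none of them called, were the kainate receptor gene Grik1 (log2 fold change -1.01, edgeR adjusted p = 0.214), Lars2 (0.79), Rpl29 (1.05), Hs3st4 (-0.47) and Il31ra (1.79). Lars2, the mitochondrial leucyl-tRNA synthetase gene, was at 114, 123, 84.6 and 78.5 CPM in control replicates 1 to 4 and at 162, 232, 157 and 171 CPM in cKO replicates 10 to 13. Lars2 did not overlap between genotypes, as was the case for 286 of the 10248 genes (2.79%). The same gene was at 102 to 149 CPM in other RGC nuclei of control and at 190.4 to 274 CPM in those of cKO libraries, so the same direction was seen outside the Spp1-high set. Markers such as Kcng4 (13.9 ± 2.77 and 11.8 ± 1.87 CPM), Nefh (74.2 ± 16.8 and 73.2 ± 13.3 CPM) and Il1rapl2 (2681 ± 1113 and 2399.9 ± 603 CPM) overlapped between genotypes and were not called.

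The difference between Spp1-high and other RGC nuclei depended on genotype for 3 of 16895 genes (0.0178%) by the edgeR interaction test, 1 with a positive value (Synpr, 0.00592%) and 2 with a negative one (Grik1 and Gm30835, 0.0118%). Grik1 (chr16:87692788-88087153, minus strand, GRCm39) was at 72.8, 186, 194 and 174 CPM in Spp1-high nuclei of control replicates 1 to 4 and at 78.4, 85.0, 76.1 and 102 CPM in those of cKO replicates 10 to 13. Other RGC nuclei had 226 to 243 CPM in control and 234 to 275 CPM in cKO libraries. Within Spp1-high nuclei control replicate 1 lay below every cKO library, while the other 3 controls lay above them (interaction log2 -1.09, edgeR adjusted p = 1.59e-06). Leaving out control replicate 1 brought Grik1 past the threshold within Spp1-high nuclei too (log2 fold change -1.17, edgeR adjusted p = 5.19e-04).

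Single nuclei weighed on this gene. In control replicate 3 the nucleus with the most Grik1 held 68 UMIs, 35.2% of the total of that library, and in control replicate 2 it held 53. Without the top nucleus of each library the control values were 63.2, 155, 132 and 148 CPM and those of cKO libraries 71.9, 79.3, 71.8 and 94.6 CPM. Grik1 was at 403 CPM in subgroup 7. With nuclei thinned to 2000 UMIs and members rechosen at 1 or more Spp1 UMI, the interaction was 0.16 and did not pass, and DESeq2 gave -1.0003 with an adjusted p of 0.0681.

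Synpr, which encodes the synaptic vesicle protein synaptoporin, was at 9.49, 15.2, 32.2 and 31.7 CPM in Spp1-high nuclei of control replicates 1 to 4 and at 33.1, 67.3, 51.2 and 28.4 CPM in those of cKO replicates 10 to 13. Other RGC nuclei had 210.2 to 259 CPM, above every Spp1-high value (interaction log2 1.18, edgeR adjusted p = 0.0327). The long non-coding RNA Gm30835 was at 0, 26.0, 33.2 and 6.68 CPM in the controls and at 0, 3.37, 4.87 and 15.9 CPM in the cKO libraries (interaction log2 -2.53, edgeR adjusted p = 0.0327). In control replicate 3, 1 nucleus held 97.0% of its UMIs. Both genes missed the threshold without control replicate 2 (edgeR adjusted p = 0.433 for each), without cKO replicate 11 (0.223 and 0.114) and without cKO replicate 12 (0.0971 and 0.196), and Gm30835 also did so without control replicate 3 (0.101). Both also missed it in nuclei with at least 4000 UMIs (edgeR adjusted p = 0.0594 for each), at 2 or more Spp1 UMIs (0.451 and 0.0502), after thinning and with DESeq2. Gm30835 missed it as well at 5 or more Spp1 UMIs and without the nuclei that carried macrophage genes (0.0629).

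**Figure D5:**
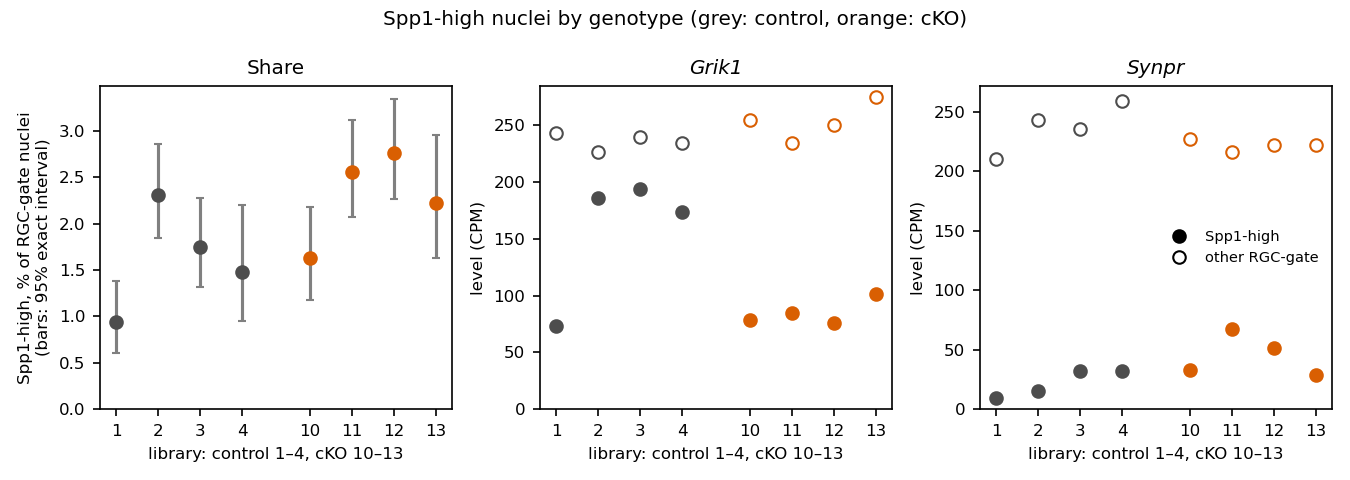
Share of Spp1-high nuclei among RGC-gate nuclei in percent (left, bars are exact 95% binomial intervals) and levels of Grik1 and Synpr in CPM (linear axes from 0) in each of 4 control (grey) and 4 cKO (orange) libraries, with filled points for Spp1-high and open points for other RGC-gate nuclei. Shares overlap between genotypes, 3 of 4 control libraries lie above all cKO libraries for Grik1 in Spp1-high nuclei, and for both genes other RGC-gate nuclei lie higher.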

How the data were processed

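Nuclei of mouse retina were profiled by 10x 3′ droplet sequencing in 8 libraries (4 control, 4 cKO). Raw counts of UMIs for each gene in each observed barcode were deposited by the authors. Per the labels these counts were made with Cell Ranger 7.0.0 on GRCm39, and the study's later steps (free RNA removal, doublet removal, integration and annotation) are not in them, so the nuclei described here were rebuilt from the counts. Groups and replicate numbers came from the sample titles. The members, gene lists and comparisons were chosen with earlier results of these data known.

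Spp1-high and other RGC-gate nuclei were selected by the stated UMI conditions and their counts were summed per library. The sums were tested in edgeR (version 4.0.16, R 4.3.3) by the quasi-likelihood F test after TMM scaling and filterByExpr, with Benjamini-Hochberg adjustment over all genes tested. The library was a block for populations and interactions, and genotype was the only term within Spp1-high nuclei. Calls needed an adjusted p below 0.05 together with a log2 fold change beyond 0.5 in either direction. Mitochondrial genes were left out of all tests, and genes used by the rule were left out of those between populations and of the interaction. Within Spp1-high nuclei the test of genotype left out Spp1, Cartpt, Foxp2, Opn4, Eomes and Tbx20 but not the other genes of the rule. Depth-matched sets were drawn at random, with a fixed seed, from other RGC nuclei of the same library within bins of total UMIs set by the deciles of its Spp1-high nuclei, at up to 1 or 2 per Spp1-high nucleus. In 4 libraries the bins held too few, so that 49 were drawn for 54 Spp1-high nuclei in control replicate 3, and 41 for 43, 89 for 93 and 36 for 46 in cKO replicates 10, 11 and 13. The matched nuclei of cKO replicate 13 remained shallower, with a median of 22457.5 against 24387.5 UMIs. Shares and single levels were compared by two-sided exact permutation over 70 assignments, and exact binomial intervals came from scipy 1.17.1. Subgroups came from Leiden clustering at resolution 0.5 on 1500 variable genes and 20 principal components (leidenalg 0.10.2). Doublets were not removed, and removal of the highest Scrublet scores (scanpy 1.11.5, 0.8% per 1000 barcodes) was an alternative. CPM is UMIs per 1000000 UMIs of the sum. Scripts were tested on simulated data. Genes named for populations were the 12 higher and 12 lower with the largest change among called genes of at least 20 CPM with 1 direction in 8 of 8 libraries, without Gm and Rik symbols. For genotype they were called genes, or the 5 with the smallest p where fewer than 5 were called, and for the interaction the called genes. Subgroups were given by 5 leading genes of at least 50 CPM, and genes of the lists could also be named.

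Depth was 35697629 to 60088630 UMIs per library, and 24 to 102 Spp1-high nuclei per library set the precision of every level in them. Gene positions were matched by gene ID to the GENCODE vM39 annotation. Alternatives were other depth and Spp1 thresholds, thinning to 2000 UMIs, DESeq2 1.42.0, its size factors, no filter on low counts, no library block and leaving out each library. Some genes that the rules select are not reported here.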

Additional observations from a re-analysis of the deposited data

Results flagged for a closer look

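For the named genes each group of 4 libraries was searched for a library far from the other 3 (by the gap to the nearest of them as a share of the range, at Dixon's 95% limit), and 6 of 76 groups met this. Chance alone gives about 1 in 20. Il1rapl2 in Spp1-high nuclei was at 4332 CPM in control replicate 1, against 2016, 2017 and 2358 CPM in the other controls. Grik1 was at 72.8 CPM in the same library, against 174, 186 and 194 CPM. That library had 25 Spp1-high nuclei, and subgroup 1, the subgroup with the most Il1rapl2, held 10 of them. Ctxn3 was at 147 CPM in cKO replicate 10 (99.9 to 104 CPM in the other cKO libraries) and Ldb2 at 21.0 CPM in cKO replicate 11 (7.51 to 9.80 CPM). Sox5os4 was at 2.53 CPM in control replicate 2 (0 CPM in the other controls) and Myo5b at 12.0 CPM in the same library (0 to 1.67 CPM).

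For 3 genes the effect of genotype differed between Spp1-high and other RGC nuclei in the edgeR interaction test. The log2 differences were -1.09 for Grik1 (adjusted p = 1.59e-06), -2.53 for Gm30835 (adjusted p = 0.0327) and 1.18 for Synpr (adjusted p = 0.0327). Gm30835 had 94.5% of its UMIs in subgroup 3.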

How the results depend on the processing

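The count of genes that differed between Spp1-high and other RGC nuclei, 3670, was 1550 with depth matched, 1737 with all nuclei thinned to 2000 UMIs after selection and 705 with selection repeated on thinned nuclei at 1 Spp1 UMI, settings that also test fewer genes. It was 3492 to 3729 when 1 library was left out, 3352 with DESeq2 and 4267 without a filter. All 24 genes selected for this comparison passed in the same direction wherever tested.

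Within Spp1-high nuclei the count of genes called for genotype, 0, was 31 without a filter and 0 to 1 when 1 library was left out (Grik1, without control replicate 1). Without control replicates 1 and 4, an alternative chosen after seeing the data, it was 1. Removing 1 Spp1-high and 5 other nuclei with macrophage genes, likewise chosen after seeing the data, gave 3694 genes between populations, 0 for genotype and 2 for the interaction. The interaction count, 3, was 1 at 4000 UMIs or more, 12 at 5 or more Spp1 UMIs, 0 thinned, 0 with DESeq2, 11 without a filter, 1 to 8 when 1 library was left out and 18 without control replicates 1 and 4. In the thinned selection the sign turned for Grik1 (0.13 within Spp1-high nuclei, 0.16 for the interaction) and Hs3st4 (0.022), and the cause was not tested.

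The difference in share stayed positive and did not pass in any alternative (0.224 points at 5 or more Spp1 UMIs to 0.988 points at 4000 UMIs or more, and 0.445 to 0.904 when 1 library was left out), nor did that of Spp1 over the RGC gate (6.23 to 14.7 CPM when 1 library was left out). No paired analysis was possible because the groups share no replicate numbers.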

Other observations

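Of the 559 RGC-gate nuclei with 3 or more Spp1 UMIs, 88 failed another condition, 75 of them for UMIs of at least 2 of Opn4, Eomes and Tbx20, 8 for Cartpt and 7 for Foxp2. The 75 nuclei had pooled levels of 12.6 CPM of Kcng4, 52.9 CPM of Nefh, 3274 CPM of Il1rapl2, 1.68 CPM of Fes (2 UMIs) and 15.97 CPM of Pou4f1, with Tpbg at 0 UMIs, beside 99.2 CPM of Opn4 and 158 CPM of Tbx20, which the rule used. In the 75 nuclei Kcng4 and Il1rapl2 lay within the range of the Spp1-high libraries, and Nefh and Fes lay below it. Opn4 encodes melanopsin, the photopigment of intrinsically photosensitive RGCs. The 8 nuclei with over 4 Cartpt UMIs and the 7 with over 4 Foxp2 UMIs had 0 Kcng4 UMIs and 44.7 and 47.1 CPM of Nefh.

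Both tested genes of the astrocyte list were higher in Spp1-high than in other RGC nuclei, beside 9.75% higher and 13.4% lower over all genes. Aldoc, a glycolytic enzyme gene, was at 70.3 ± 11.4 against 32.9 ± 8.09 CPM (SD, n = 8 libraries; log2 fold change 1.12, edgeR adjusted p = 2.39e-16; 1.14 with depth matched). S100b, for a calcium-binding protein, was at 30.6 ± 11.0 against 8.58 ± 1.09 CPM (1.76, edgeR adjusted p = 8.02e-14; 1.44 with depth matched). Gfap, the defining astrocyte filament gene, had 0 UMIs in all Spp1-high nuclei. Of 9 tested bipolar cell markers 2 were higher (Isl1 and Lrtm1) and 4 lower, and of 5 tested horizontal cell markers 2 were higher (Onecut2 and Calb1) and 0 lower. With depth matched Calb1 and Onecut2 did not pass (edgeR adjusted p = 0.936 and 0.196). Endothelial and mural markers were higher in 0 and lower in 2 of 4 tested cases.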
